A study of Homo sapiens with 6 samples.

Results

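Matrix metalloproteinases (MMPs) and their inhibitors (TIMPs) were described here in KYSE450 cells, an established line of esophageal squamous cell carcinoma (ESCC), and in KEAP1null-KYSE450 cells derived from it. The 10 genes are 7 MMPs (MMP1, MMP2, MMP7, MMP9, MMP10, MMP13 and MMP14) and 3 inhibitors (TIMP1, TIMP2 and TIMP3), found by gene symbol among the 58884 rows of a matrix of normalized counts. Each symbol stood on 1 row. The members were chosen by their normalized counts and fold changes in this same comparison, so the differences of these 10 genes are given as a description and without p-values.

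KYSE450 carries wild-type NRF2. KEAP1null-KYSE450 is a single clone in which KEAP1, the adaptor that sends NRF2 to degradation, was disrupted with CRISPR-Cas9, so other differences of the clone cannot be told apart from loss of KEAP1. Both lines were grown in RPMI1640 with serum and received no treatment, and 3 RNA sequencing libraries were made from each. The columns of the matrix name the line but no replicate, and libraries are numbered here by their order. Nothing says that libraries came from separate cultures, so errors and p-values measure the spread between libraries, which may be technical.

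MMPs are zinc-dependent proteases that are made as inactive proenzymes and cut proteins of the extracellular matrix and the cell surface. Collagenases open the collagen triple helix, gelatinases digest the opened chains, stromelysins and matrilysin cut other matrix proteins, and membrane-type MMPs work at the cell surface. TIMPs bind the active site of the enzymes and block it. In squamous carcinomas, MMPs made by tumor cells and by stroma are known for their part in invasion.

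The libraries held between 54829313 and 57380170 summed normalized counts, reads scaled by 1 factor per library. A level of 3 reads, between 2.77 and 3.21 normalized counts, was taken as the floor of detection, and it covers counting error only. KEAP1 mRNA did not separate the lines (5146 to 5760 normalized counts in KYSE450 and 4907 to 5737 in KEAP1null-KYSE450 libraries), and gene counts do not show an edit. The NRF2 targets NQO1 and GCLM had log2 fold changes of 2.70 and 3.36 (adjusted p = 3.9e-10 and 2.1e-11, limma). NFE2L2, the gene of NRF2 itself, was lower in mRNA, with a log2 fold change of -0.47 (adjusted p = 0.00063, limma). Summed counts of 7 squamous epithelial markers lay between 403360 and 555074 in KYSE450 and between 622299 and 770673 in KEAP1null-KYSE450 libraries. KRT5 made up most of the sum in the clone, with a mean of 568248 against 208100 in KYSE450, while KRT6A and KRT13 were lower. At an adjusted p under 0.05 (limma), 4 of the 7 markers were lower and 2 higher, with a median log2 fold change of -0.60. Summed counts of 6 leukocyte markers stayed under 20 in every library, and those of 4 endothelial markers lay between 57.8 and 74.8 in KYSE450 and between 41.5 and 68.6 in KEAP1null-KYSE450 libraries, mostly from VWF, with PECAM1 at 0 and CDH5 at 10.7 to 28.9 and 1.01 to 3.06. The 7 fibroblast markers summed to 622 to 856 in KYSE450 and 351 to 436 in KEAP1null-KYSE450 libraries, almost all of it COL1A1. COL1A2, DCN and THY1 had at most 3 reads in every library, and COL3A1 and PDGFRB did not exceed 12.9 normalized counts. LUM had 6.42, 14.2 and 14.0 in KYSE450 and 0 in all KEAP1null-KYSE450 libraries. The part of cells with these markers in the MMP and TIMP levels was not tested. In such bulk samples, fewer cells with a transcript and less of it per cell cannot be told apart.

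Collagenases were the members furthest apart between the lines. MMP13, collagenase-3, had 2601, 2396 and 2749 normalized counts in KYSE450 libraries and 0, 6.12 and 1.01 in KEAP1null-KYSE450 libraries. The transcript was thus abundant in every parental library and at or near the floor in every library of the clone. Its log2 fold change was -10.05 (standard error 0.52, n = 3 each) on the scale of log2(normalized count + 1), where low counts pull a fold change toward 0. In reads summed over the 3 libraries of each line, 7750 in KYSE450 stood against 7 in KEAP1null-KYSE450, a 1129-fold lower level (95% exact conditional binomial interval of 548 to 2809, counting error only). In KYSE450 library 2 and KEAP1null-KYSE450 library 3, the reads in this and later sums are estimates, since 1 read was worth so nearly 1 that the check of whole reads could not be passed.

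MMP1, interstitial collagenase, had 204, 280 and 226 normalized counts in KYSE450 libraries and 0.923, 0 and 0 in KEAP1null-KYSE450 libraries. A single read was counted for MMP1 in the clone against 710 in the parental line. The level was 724-fold lower by this ratio, with an interval of 130 to 28636 that shows how little 1 read fixes the size. The log2 fold change was -7.57 (standard error 0.47), and it lay between -10.08 and -4.57 under 15 other settings, the extremes coming from the pseudocount. The 2 collagenases together fell from 998 ± 52.5 to 0.951 ± 1.05 normalized counts per kilobase of exon (SD, n = 3 each).

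MMP10, stromelysin-2, had 469.5, 549 and 444 normalized counts in KYSE450 libraries. Its values in KEAP1null-KYSE450 libraries were 19.4, 22.4 and 16.1. Unlike the collagenases, MMP10 stayed above the floor in every library of the clone, where 3.96% of its parental mean was left. The log2 fold change was -4.59 (standard error 0.23). MMP7, matrilysin, was low in both lines, with 11.8, 8.09 and 11.2 normalized counts in KYSE450 and 0, 3.06 and 0 in KEAP1null-KYSE450 libraries. Its 31 reads in KYSE450 against 3 in KEAP1null-KYSE450 cells give a 10.5-fold lower level, with an interval of 3.29 to 53.9. MMP7 did not reach the mean of 10 normalized counts over the 6 libraries that a gene needed to enter the fit.

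Promoter sequences of 5 members were in the RefSeq table used (build GRCh38.p14): MMP7, MMP10, MMP14, TIMP1 and TIMP3. MMP1, MMP2, MMP9, MMP13 and TIMP2 were missing from it. The 250 bases before the start of MMP7 and MMP10, lowered members that lie in the same gene cluster, are shown beside those of TIMP1, which did not separate the lines. Capitals mark matches on either strand to the AP-1 motif TGANTCA, the ETS motif AGGAAG and the TATA motif TATAAA, and all lines read 5′ to 3′ in the direction of the gene.
MMP7, chr11:102530748-102530997, minus strand: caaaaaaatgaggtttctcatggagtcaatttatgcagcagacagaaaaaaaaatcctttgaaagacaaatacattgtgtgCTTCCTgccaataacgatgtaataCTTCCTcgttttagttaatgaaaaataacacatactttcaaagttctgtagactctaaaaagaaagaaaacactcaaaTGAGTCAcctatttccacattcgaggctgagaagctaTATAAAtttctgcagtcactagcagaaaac
MMP10, chr11:102780629-102780878, minus strand: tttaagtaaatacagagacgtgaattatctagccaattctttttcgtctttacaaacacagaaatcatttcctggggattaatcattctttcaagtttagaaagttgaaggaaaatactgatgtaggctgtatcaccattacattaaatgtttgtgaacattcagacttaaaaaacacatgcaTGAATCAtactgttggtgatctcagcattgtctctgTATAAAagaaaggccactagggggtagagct
TIMP1, chrX:47582186-47582435, plus strand: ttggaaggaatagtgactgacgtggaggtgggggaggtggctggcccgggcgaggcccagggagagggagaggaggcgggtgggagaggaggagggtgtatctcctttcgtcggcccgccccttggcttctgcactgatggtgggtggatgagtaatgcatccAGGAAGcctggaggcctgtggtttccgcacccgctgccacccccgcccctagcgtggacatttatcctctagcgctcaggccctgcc

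Both MMP promoters held 1 match to TGANTCA, starting 67 bases before the start of the gene. The TATA motif began 30 bases before the start in MMP7 and 31 bases before it in MMP10. Of the 5 members with a sequence, these were the 2 that held either motif in the window from 250 bases before to 50 bases after the start. Over all 27305 promoters of that length in the table, 7.76% held the AP-1 motif and 12.0% the TATA motif. The ETS motif, found in 33.7% of all promoters, had 2 matches in MMP7, 1 in TIMP1 and none in the windows of the other 3. TGACNNNGC, the core of the antioxidant response element that NRF2 binds, had a match in 13.6% of all promoters and in none of the 5 members. The AP-1 motif and this core can overlap. These matches describe letters in a short window, and no binding was measured.

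Among the gelatinases, MMP2 was lower in the clone and MMP9 was near the floor in both lines. MMP2, gelatinase A, had 304, 224 and 214 normalized counts in KYSE450 libraries and 55.4, 20.4 and 47.4 in KEAP1null-KYSE450 libraries. Every library of the clone lay below every parental library, and 16.6% of the parental mean was left (log2 fold change -2.66, standard error 0.33). MMP9, gelatinase B, had 5.35, 4.04 and 11.2 normalized counts in KYSE450 and 18.5, 0 and 0 in KEAP1null-KYSE450 libraries. One library of the clone held all of its 20 reads there, against 21 reads over the parental libraries, and the groups overlapped. MMP9 was under the mean of 10, and no difference was detectable at this depth. It shares 430 exon bases with the antisense gene SLC12A5-AS1, which had 0 in all KYSE450 and 7.38, 3.06 and 9.08 in KEAP1null-KYSE450 libraries. Whether reads were assigned by strand is not given in the sources used here, so reads of such pairs cannot be told apart.

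MMP14, the membrane-type protease that together with TIMP2 activates the MMP2 proenzyme, did not separate the lines. Its normalized counts were 1232, 904 and 748 in KYSE450 and 849, 728 and 551 in KEAP1null-KYSE450 libraries. The groups overlapped, and the log2 fold change was -0.43 (standard error 0.19). Per kilobase of exon, the ratio of MMP2 to MMP14 was 0.242, 0.244 and 0.282 in KYSE450 libraries and 0.0641, 0.0275 and 0.0846 in KEAP1null-KYSE450 libraries. The ratio of MMP14 to TIMP2 was 15.0 ± 3.12 and 12.2 ± 1.78 (SD, n = 3 each), with overlapping groups.

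Among the inhibitors, TIMP3 was the member that was higher in the clone. TIMP3, which binds to the extracellular matrix and also inhibits ADAM proteases, had 69.5, 70.8 and 32.6 normalized counts in KYSE450 and 123, 170 and 132 in KEAP1null-KYSE450 libraries. The groups did not overlap, and the log2 fold change was 1.35 (standard error 0.31). KYSE450 library 3 held the lowest value, and without it the log2 fold change was 0.99. After quantile normalization it was 0.96.

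TIMP1, a secreted inhibitor of most soluble MMPs, had 254.5, 195 and 229 normalized counts in KYSE450 and 227, 165 and 202 in KEAP1null-KYSE450 libraries. TIMP2 had 143, 74.8 and 57.8 in KYSE450 and 87.7, 72.4 and 72.6 in KEAP1null-KYSE450 libraries. Both had overlapping groups. The log2 fold changes were -0.20 (standard error 0.19) and -0.14 (standard error 0.31), so a change in either direction could not be told from the spread between libraries. KYSE450 library 1 held the highest TIMP2 value, and without it the log2 fold change of TIMP2 was 0.23.

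**Figure D1:**
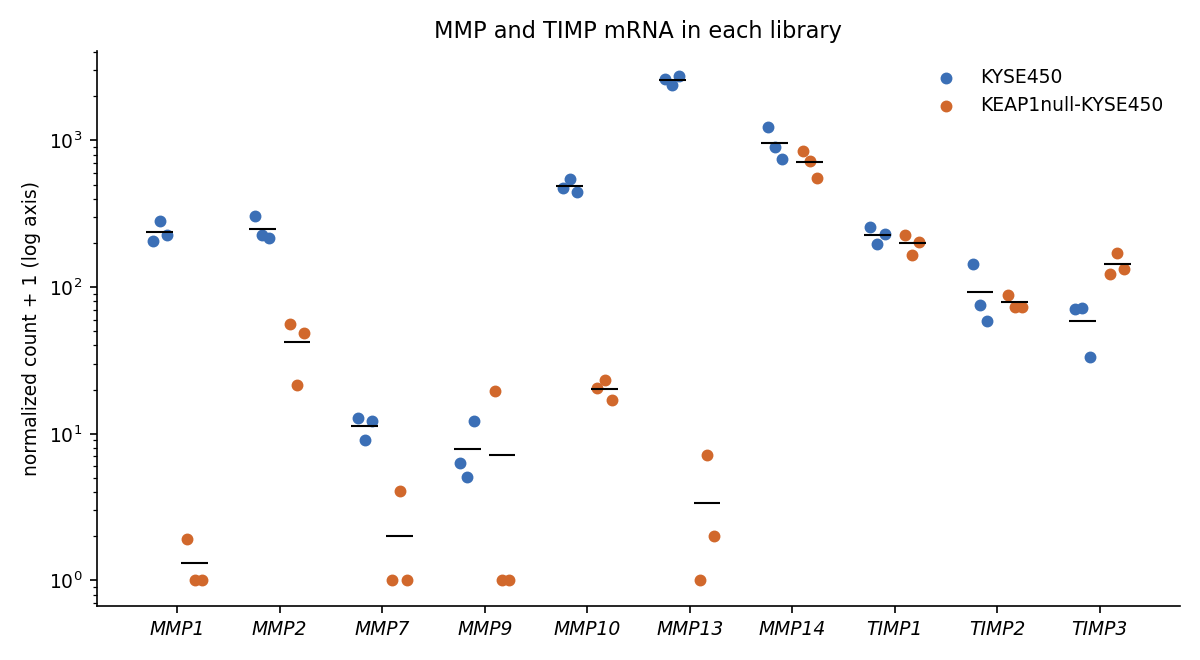
Normalized count plus 1 (log axis) of the 10 genes in each library, with KYSE450 in blue, KEAP1null-KYSE450 in orange and bars at the means of 3 libraries. MMP1, MMP2, MMP7, MMP10 and MMP13 lay lower in every orange library, TIMP3 lay higher, and the other 4 genes overlapped.

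Of the 10 members, 8 passed the filter of a mean of at least 10 normalized counts, and MMP7 and MMP9 did not. Of these 8, 4 were lower and 1 was higher past both thresholds of the study (adjusted p under 0.05 and absolute log2 fold change of at least 1). Among all 16701 genes tested, 18.2% were past both thresholds, 5.98% lower and 12.2% higher, and 29.3% were lower and 28.4% higher in every library of the clone without overlap. These shares are given as background only, since the same comparison chose the list. The counts over all genes were 2045 higher and 999 lower, and 1413 and 1236 after quantile normalization. The median log2 fold change of the 8 members was -1.55, against 0.004 over all genes tested. In the order of all genes tested from the lowest log2 fold change, MMP13 stood at place 2, MMP1 at 7, MMP10 at 74 and MMP2 at 230.

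Levels of different genes were compared per kilobase of merged exon length. In KYSE450 cells the order began with MMP13 at 912 ± 62.6 normalized counts per kilobase (SD, n = 3), followed by MMP10 (277), MMP14 (208), TIMP1 (157), MMP1 (86.4) and MMP2 (52.6). TIMP2 (14.8), TIMP3 (12.5), MMP7 (4.46) and MMP9 (2.94) came last. The values of MMP10 and MMP14 overlapped between libraries, as did MMP14 with TIMP1, TIMP2 with TIMP3, and MMP7 with MMP9, so these neighbours were not separated.

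In KEAP1null-KYSE450 cells the order began with MMP14 at 153 and TIMP1 at 137 normalized counts per kilobase, which overlapped. TIMP3 followed at 30.8, apart from both of its neighbours. TIMP2 (12.5), MMP10 and MMP2 (8.72) each overlapped with the next in order. MMP9, MMP13, MMP7 and MMP1 had means under 3 normalized counts per kilobase. These last 4 each overlapped with the next in order, so their places were not separated. MMP13 thus went from the first place to these unseparated last 4, and TIMP3 from an overlap with TIMP2 to the third place.

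The summed level of the 7 member MMPs per kilobase was 1598, 1509 and 1522 in KYSE450 libraries and 215, 178 and 139 in KEAP1null-KYSE450 libraries. The summed TIMP level was 214, 162 and 175 in KYSE450 and 198, 163 and 180 in KEAP1null-KYSE450 libraries. The MMP sums were far apart while the TIMP sums overlapped. The ratio of MMP to TIMP transcripts was 8.48 ± 0.934 in KYSE450 and 0.984 ± 0.184 in KEAP1null-KYSE450 cells (SD, n = 3 each). Without MMP13 it was 3.47 ± 0.531 and 0.98 ± 0.183. With the longest transcript in place of merged exons as the length, the ratio was 6.95 and 0.908. A ratio of transcripts is not a ratio of active enzyme to inhibitor. The sums hold only the 7 MMPs and 3 TIMPs of the list, chosen with these values known. Tested MMPs outside it had means of 346 (MMP15), 166 (MMP11), 55.7 (MMP17), 27.3 (MMP16) and 18.4 (MMP28) normalized counts in KYSE450 libraries. Their means in KEAP1null-KYSE450 libraries were 219, 131, 84.4, 41.9 and 2.92, in the same order. A ratio with them included was not computed.

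The makeup of both sums differed between the lines. MMP13 was 59.1% ± 4.1 of the sum of the 7 member MMPs in KYSE450 and 0.489% ± 0.637 in KEAP1null-KYSE450 cells. MMP14 was 13.4% ± 3.07 and 86.6% ± 1.57, although its own level overlapped between the lines. Among the inhibitors, TIMP1 made up 85.3% ± 4.61 of the sum in KYSE450 and 75.7% ± 4.91 in KEAP1null-KYSE450 cells. TIMP3 made up 6.87% ± 2.72 and 17.4% ± 4.76 (SD, n = 3 each).

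**Figure D2:**
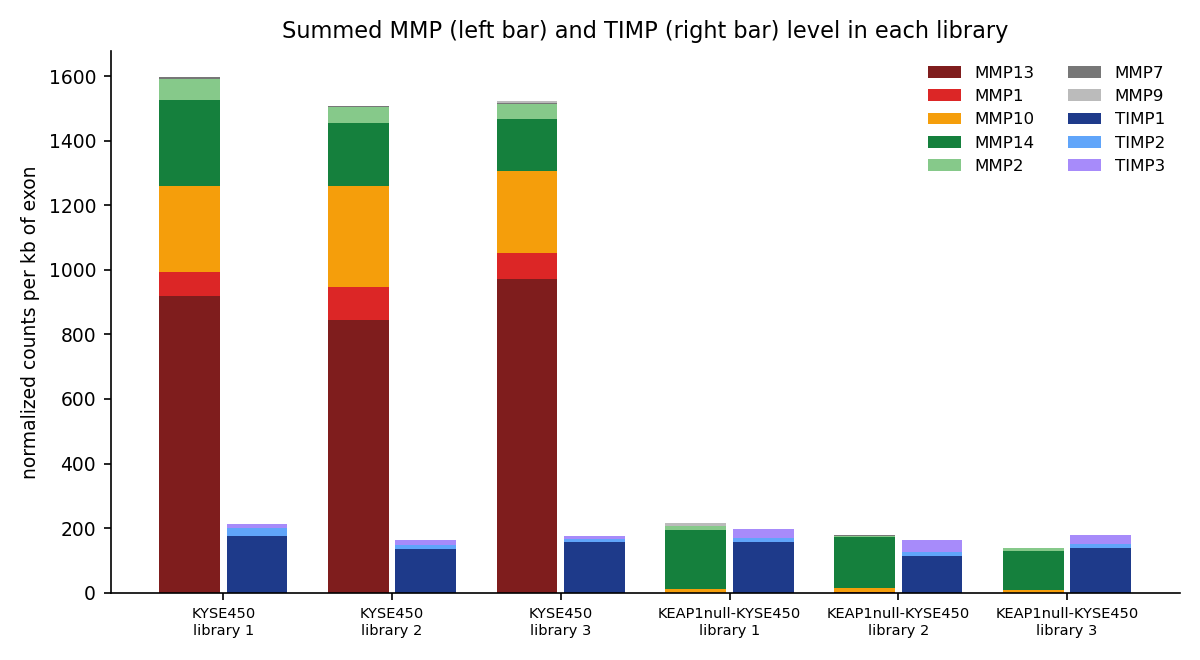
Summed level of the 7 member MMPs (left bar of each library) and the 3 member TIMPs (right bar) in normalized counts per kilobase of exon, stacked by gene. The MMP bars reach 1509 to 1598 in KYSE450 and 139 to 215 in KEAP1null-KYSE450 libraries, while the TIMP bars lie between 162 and 214 throughout.

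In hg38, 4 members lie in the MMP gene cluster on chromosome 11, from 102520508 to 102955732, which holds 9 MMP genes on the minus strand. MMP7 (102520508 to 102530750) opens the cluster and MMP13 (102942995 to 102955732) ends it. MMP10 (102770502 to 102780628) and MMP1 (102789401 to 102798160) are neighbours among the MMP genes. All 4 were lower in every library of the clone, as were 29.3% of all genes tested, and the choice of members used these values. The other members lie elsewhere, with MMP2 on chromosome 16, MMP14 on 14, MMP9 on 20, TIMP1 on X, TIMP2 on 17 and TIMP3 on 22.

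The remaining 5 genes of the cluster were at or near the floor in both lines. MMP12, macrophage elastase, had 1.07, 1.01 and 20.5 normalized counts in KYSE450 and 0 in all KEAP1null-KYSE450 libraries, so nearly all of its reads came from 1 library. MMP3, stromelysin-1 and the closest relative of MMP10, had 0, 5.05 and 0 in KYSE450 and 0 in all KEAP1null-KYSE450 libraries. MMP8 and MMP27 did not exceed 1.02 in any library. MMP20 reached 8.09 in 1 KYSE450 library and at most 1.02 elsewhere.

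Genes that flank the cluster had log2 fold changes between -2.76 and 2.53. Within 1 Mb on either side, 11 protein-coding genes were listed and 9 were tested, with a median log2 fold change of -0.08. BIRC3, an inhibitor of apoptosis on the MMP7 side, had 1642 ± 40.5 and 242 ± 19.3 normalized counts in KYSE450 and KEAP1null-KYSE450 libraries (SD, n = 3 each) and fell by 2.76 on the log2 scale (adjusted p = 2.6e-09, limma). PDGFD, a growth factor gene on the MMP13 side, rose from 72.0 ± 8.72 to 419.5 ± 33.0 (SD, n = 3 each, log2 fold change 2.53, adjusted p = 2.7e-07, limma). The nearest flanking genes were TMEM123, with a log2 fold change of -0.41 (adjusted p = 0.006, limma), and DCUN1D5, with -0.54 (adjusted p = 0.00081, limma). BIRC2 (-0.08), YAP1 (0.17), DYNC2H1 (-0.28), CEP126 (0.71) and CFAP300 (0.77) also stayed short of the fold change threshold. Of these, CEP126 and CFAP300 were past the adjusted p threshold (0.00012 and 0.0014, limma).

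**Figure D3:**
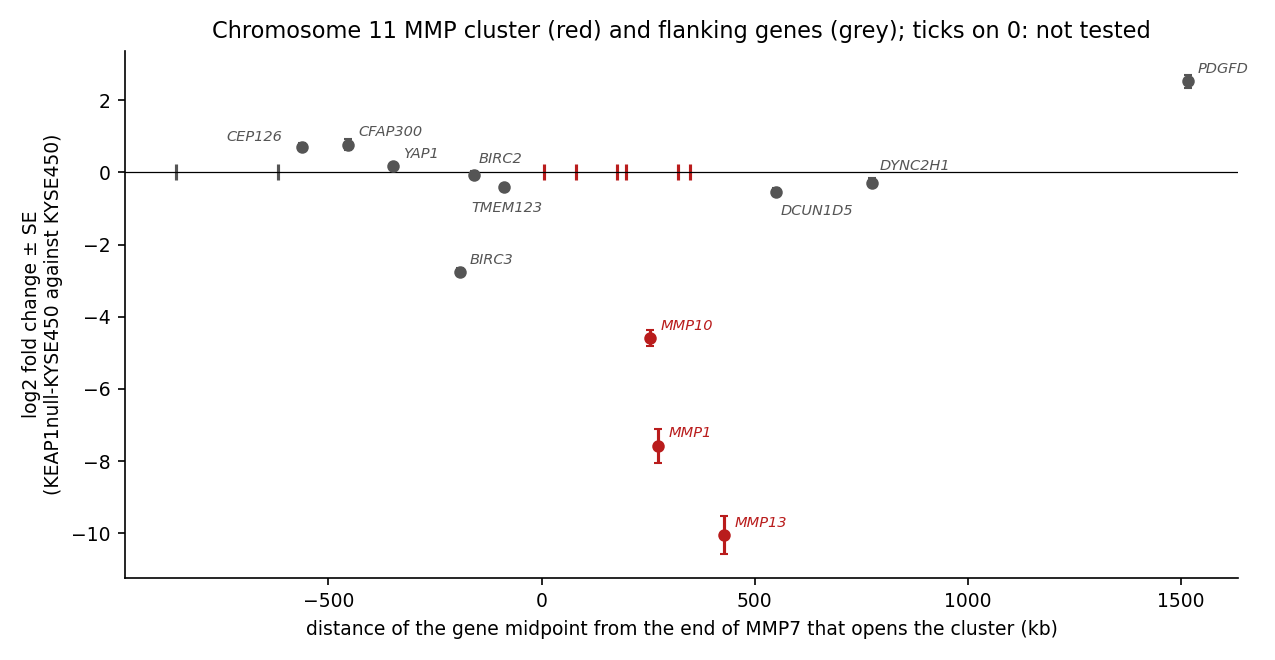
Log2 fold change with its standard error for tested genes of the chromosome 11 MMP cluster (red) and of its flanks (grey), by distance of the gene midpoint from the cluster start in kb. MMP10, MMP1 and MMP13 lie between -4.59 and -10.05, while flanking genes lie between -2.76 and 2.53. Ticks on the zero line mark genes under the filter.

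Reads could in principle be split between related MMPs. None of the 150-base stretches of the annotated transcripts of the 10 members occurs in a transcript of another gene among 27 MMP and TIMP genes. With stretches of 50 bases, 59 of 1757 in MMP10 were shared and none in the other members. MMP1 shares 223 exon bases with WTAPP1, an antisense pseudogene. WTAPP1 had 26.7, 28.3 and 24.2 normalized counts in KYSE450 and 51.7, 57.1 and 15.1 in KEAP1null-KYSE450 libraries and its groups overlapped. MMP2 and TIMP2 share exon bases with genes listed at 0 in every library.

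The genes most like MMP13 over the 6 libraries were found by the root-mean-square difference of mean-centred log2 values among all genes tested. They were ITGBL1 (0.382), CDH13 (0.815) and CCDC91 (0.85), which went from 1947, 2401 and 1569 normalized counts in KYSE450 to 2.38, 0.984 and 3.67 in KEAP1null-KYSE450 cells. For TIMP3 they were NWD1 (0.0842), the noncoding RNA AL139260.1 (0.113) and CCDC30 (0.117). With 2 groups of libraries, this measure mostly reflects the difference between the lines.

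Of 17 further genes of the families, TIMP4 included, 12 were under the filter, with a mean of at most 6.17 normalized counts. MMP26 and TIMP4 were at 0 in every library. Among all genes tested, 5.98% fell and 12.2% rose past both thresholds, and counts this small say nothing particular about the list. Of the 5 tested here, 1 fell past both thresholds and none rose. It was MMP28, epilysin, with 31.0, 13.1 and 11.2 normalized counts in KYSE450 and 3.69, 1.02 and 4.04 in KEAP1null-KYSE450 libraries (log2 fold change -2.28, standard error 0.69, adjusted p = 0.016, limma). Without KYSE450 library 1 this call was lost (adjusted p = 0.08, limma), and MMP16 was called higher instead, with a log2 fold change of 1.05. MMP15, a membrane-type MMP, had a log2 fold change of -0.66 (adjusted p = 0.019, limma), short of the fold change threshold. MMP11 (-0.27), MMP16 (0.68) and MMP17 (0.51) had adjusted p of 0.43, 0.18 and 0.21 by the same test. MMP19, MMP21, MMP23B, MMP24 and MMP25 were among the genes under the filter.

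ADAM proteases, which shed growth factors and receptors from the cell surface, had 12 genes on the list, of which 9 were tested. Of these, 2 rose and 1 fell past both thresholds, against 12.2% higher and 5.98% lower among all genes tested, and counts this small say nothing particular about the list. ADAM12, a metalloprotease known to shed EGFR ligands, had 1.07, 0 and 0 normalized counts in KYSE450 and 129, 82.6 and 74.7 in KEAP1null-KYSE450 libraries. The ratio of its 295 reads to 1 read was 289-fold, with an interval of 51.5 to 11465 (log2 fold change 6.20, adjusted p = 3e-06, limma). ADAM28 rose from 7.21 ± 4.49 to 27.7 ± 9.98 (SD, n = 3 each, adjusted p = 0.016, limma), and lost the call without KEAP1null-KYSE450 library 1 or 2 and after quantile normalization. ADAM19 fell from 167 ± 26.7 to 57.2 ± 26.6 (SD, n = 3 each, adjusted p = 0.0013, limma). ADAM17, the main sheddase of TNF, had a log2 fold change of 0.65 (adjusted p = 0.00049, limma), and ADAM10, which cuts NOTCH receptors, one of -0.27 (adjusted p = 0.17, limma). ADAM15 and ADAM9 were lower, with log2 fold changes of -0.94 and -0.58 (adjusted p = 0.00018 and 0.0065, limma). All 4 were short of the fold change threshold.

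Of 19 ADAMTS proteases, secreted enzymes of the same metalloprotease clan, 9 were tested, with 2 higher and 2 lower, against the same shares of all genes. ADAMTS5, an aggrecanase, had 38.5, 19.2 and 32.6 normalized counts in KYSE450 and 1015, 785 and 723 in KEAP1null-KYSE450 libraries (log2 fold change 4.80, standard error 0.25, adjusted p = 1.5e-08, limma). ADAMTS13, which cuts von Willebrand factor, rose from 137 ± 40.9 to 399 ± 68.2 (SD, n = 3 each, adjusted p = 0.00011, limma). ADAMTS16 fell from 90.5 ± 21.7 to 1.87 ± 2.43 (SD, n = 3 each, adjusted p = 2.4e-05, limma). ADAMTS6 had a log2 fold change of -1.35 (adjusted p = 0.041, limma), and the call held in 6 of 15 other settings.

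Of 20 genes known to activate, inhibit or dock MMPs, 16 were tested, and 6 fell and none rose past both thresholds. Among all genes tested, 5.98% fell and 12.2% rose. The median log2 fold change was -0.43 against 0.004 over all genes, and 1 further gene of the list is left out of these counts. Since earlier results of these data were known when the list was chosen, the counts and the median only describe it. The largest falls among them were those of PLAT and PLAUR. Both belong to the plasminogen activator system, which makes the plasmin that can activate MMP proenzymes. PLAT, tissue plasminogen activator, had 286, 259 and 185 normalized counts in KYSE450 and 36.0, 21.4 and 28.2 in KEAP1null-KYSE450 libraries (log2 fold change -3.05, adjusted p = 2.1e-06, limma). PLAUR, the receptor of urokinase, had 280.2, 260 and 224 in KYSE450 and 37.8, 45.9 and 30.3 in KEAP1null-KYSE450 libraries (log2 fold change -2.73, adjusted p = 1.5e-06, limma). PLAU, urokinase itself, had a log2 fold change of 0.57 (adjusted p = 0.003, limma), in the other direction and short of the fold change threshold. PLG, the gene of plasminogen, was at 0 in every library of both lines. SERPINE2, also on the list, had a log2 fold change of 0.03 (adjusted p = 0.88, limma).

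PCSK5, a proprotein convertase, fell by 1.65 on the log2 scale, a call lost with edgeR and DESeq2 on 4 libraries (highest adjusted p = 0.095), and LCN2, which binds MMP9 protein, fell by 1.44. BSG and FURIN, named after their values were seen, complete the 6. BSG, a surface protein known to induce MMPs in neighbouring cells, had 28248 ± 3715 and 11625 ± 2148 normalized counts (SD, n = 3 each), and fell by 1.29 on the log2 scale. FURIN, the convertase that activates the MMP14 proenzyme, fell from 3175 ± 735 to 1395 ± 187 (SD, n = 3 each), with a log2 fold change of -1.17 that was -0.99 without KYSE450 library 1. Other convertases of the list did not pass both thresholds. PCSK6 had a log2 fold change of 0.23 (adjusted p = 0.1, limma) and PCSK7 one of -0.39 (adjusted p = 0.036, limma). RECK, a membrane-bound inhibitor of MMP2, MMP9 and MMP14, did not separate the lines (log2 fold change -0.05, adjusted p = 0.8, limma). CD44, a docking site of MMP9 and MMP7, had a log2 fold change of -0.89, and the inhibitor TFPI2 one of -0.48. THBS1, in the other direction, had one of 0.40 (adjusted p = 0.04, limma).

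Transcription factors of the AP-1, ETS and RUNX families are known to act at MMP promoters. All 15 on the list were tested, and 5 fell and 1 rose past both thresholds, against 5.98% and 12.2% of all genes tested. The median log2 fold change was -0.85. This list was chosen with earlier results of these data known, so its counts and median are a description only. ETS1 had 1279, 1134 and 1119 normalized counts in KYSE450 and 110, 105 and 71.6 in KEAP1null-KYSE450 libraries (log2 fold change -3.63, adjusted p = 7.5e-09, limma). RUNX1 (-1.39), RUNX2 (-1.14), ETS2 (-1.07) and JUNB (-1.02) also fell. ETV5 rose from 287 ± 69.9 to 1364 ± 158 (SD, n = 3 each, log2 fold change 2.27, adjusted p = 4e-07, limma). Without KYSE450 library 1, 3 of the 15 passed, and RUNX2, ETS2 and JUNB did not. FOS (-0.15) and FOSL2 (0.33) had adjusted p of 0.62 and 0.14 (limma), and JUN (-0.85), JUND (-0.98), FOSL1 (-0.56), FOSB (-0.84), ELF3 (-0.94) and ETV4, in the other direction (0.86), were past the adjusted p but not the fold change threshold.

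**Figure D4:**
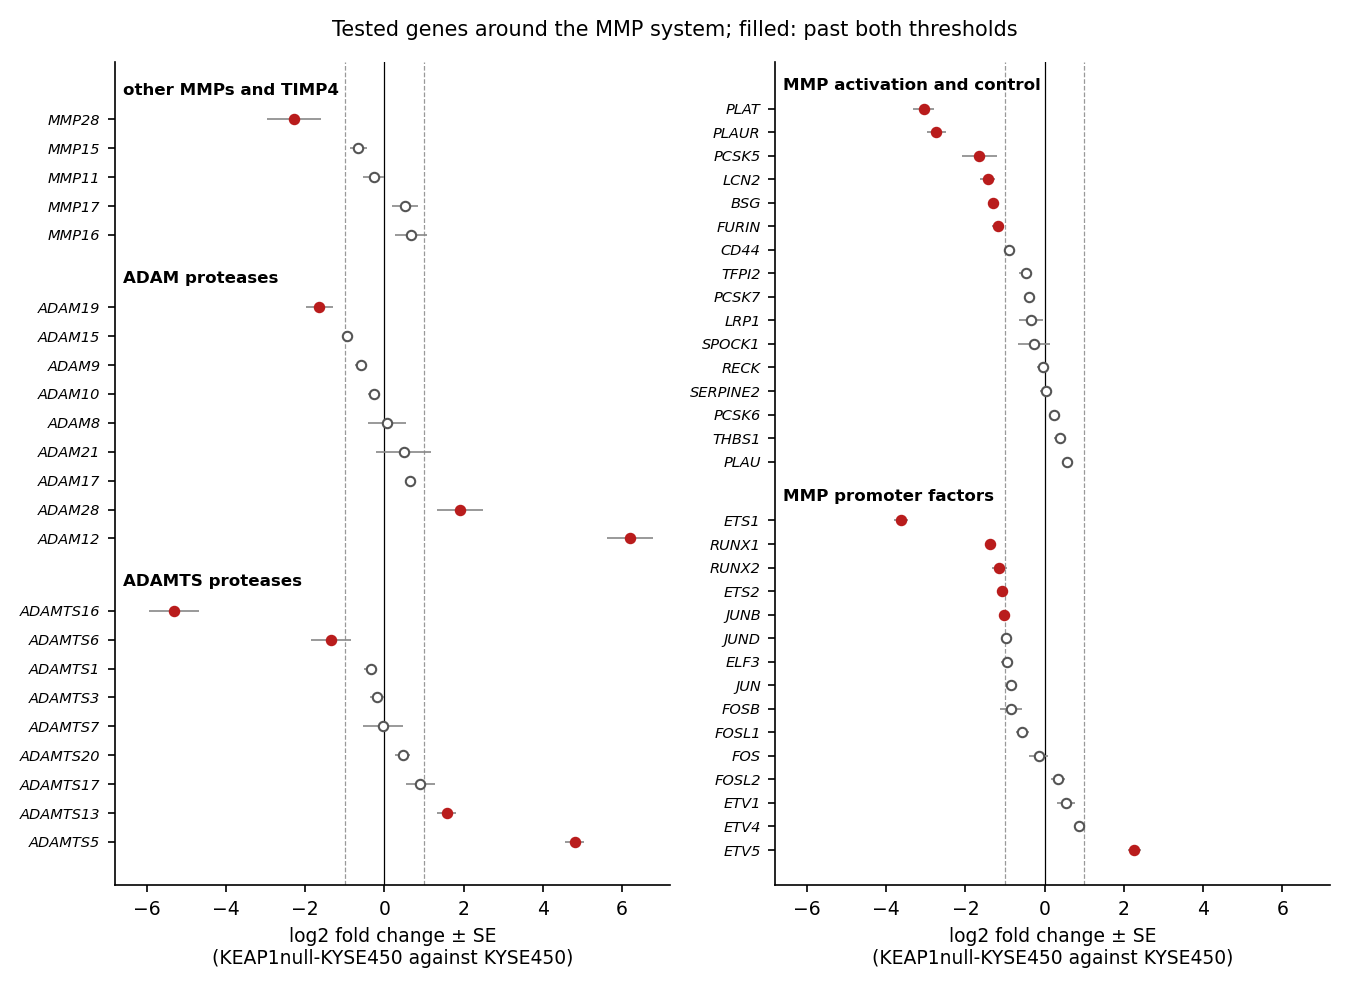
Log2 fold change with its standard error for the tested genes of 5 lists around the MMP system, filled where both thresholds were passed; dashed lines mark log2 fold changes of -1 and 1. ADAM12 and ADAMTS5 lie furthest to the right, ADAMTS16 and ETS1 furthest to the left, and the 6 filled genes for activation and control all lie below -1.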

How the data were processed

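RNA sequencing of 3 KYSE450 and 3 KEAP1null-KYSE450 libraries was used. By the methods, the authors aligned quality-filtered reads to hg38 with STAR (version 2.6.90c), counted them per gene with featureCounts (version 1.5.1) and normalized the matrix. The submitters' processing notes also name FastQC (version 0.11.5) and cutadapt (version 1.12). The values the authors deposited are a signal, reads scaled by 1 size factor per library. Divided by the value of 1 read, 100% of values came within 0.1 of a whole number in each of the 6 libraries, for totals between 53027359 and 61543442 reads. In 2 libraries (KYSE450 library 2 and KEAP1null-KYSE450 library 3) 1 read was worth so nearly 1 that whole reads could not be told from rounded values, and edgeR and DESeq2 left these out. Read totals and the exact conditional binomial intervals of low genes used all 6. No column belonged to another sample.

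Lines were compared with limma (version 3.58.1, R 4.3.3; lmFit, eBayes with trend, two-sided) on log2(normalized count + 1) for the 16701 genes whose mean reached 10 normalized counts, with Benjamini-Hochberg adjustment over all of them. Calls needed an adjusted p below 0.05 and a log2 fold change of 1 or more in size. DESeq2, which the methods name, needs counts, so DESeq2 (version 1.42.0) and edgeR (version 4.0.16) were run on the 4 libraries as alternatives. The limma, edgeR and DESeq2 fits were each tested on simulated counts in which the changed genes were not near the floor. The other settings were not simulated. Positions and merged exon lengths are from gencode v44. By rule, the members, the check of the edit, the further MMP genes and neighbours of the cluster were named. Up to 5 genes of each other list in each direction past both thresholds were named as well. Some other genes of the lists are named outside this rule, with their values known. In the list for activation and control, 1 gene is not reported here and was left out of its counts. The members and lists were chosen with earlier results of these data known. Also tried were a pseudocount of 0.1 or 10, keeping all genes, a minimum mean of 100, rescaling to 1 total, quantile normalization, eBayes without trend, no fold change threshold, each library left out, and another gene length or promoter window.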

Additional observations from a re-analysis of the deposited data

How the results depend on the processing

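Among the members, 4 were lower past both thresholds in 15 of 16 other settings and 5 in the setting without a filter, where MMP7 entered. In the main fit, 5.98% of all genes tested were lower. The members were chosen with these values known, so their counts only describe how the calls depend on the settings and are no support for the differences. The count of higher members, 1 with TIMP3, was 0 after quantile normalization and with a mean of at least 100, where TIMP3 was not tested, and 0 to 1 with 1 library left out. With an adjusted p alone, 4060 genes were higher and 4251 lower, and the counts were 2 for the other MMPs and TIMP4, 6 for the ADAM proteases, 11 for activation and control and 12 for the promoter factors. With a mean of at least 100, 875 genes were higher, and the counts were 0 for the other MMPs and TIMP4, 1 for the ADAM proteases and 2 for the ADAMTS proteases, as fewer genes were tested. Without a filter 7 ADAMTS proteases passed. With 1 library left out, the promoter factors that passed numbered 3 to 9. The log2 fold change of TIMP2 lay between -0.53 and 0.23 and changed sign in 1 of 14 other settings, and those of the other 7 members tested kept their sign in every setting run. No paired analysis was possible because the columns carry no replicate numbers. Levels near the floor, as for MMP1, MMP7 and MMP13 in the clone, limit how well the size of a fold is known, and MMP9 was too low in both lines for a difference to be detected.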
